A study of Mus musculus with 9 samples.

Results

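The second step of epididymal transit, from the corpus to the cauda, was followed through the miRNA cargo of epididymosomes, the vesicles shed into the lumen of the epididymis. The miRNAs described are all those with a mean of at least 10 CPM (reads of a miRNA scaled to a common number of miRNA reads per library) in the corpus, the cauda or both. This rule took in 342 of the 358 miRNAs in the deposited table, of which 280 reached the level in both segments, 20 in the corpus only and 42 in the cauda only. The members nearest to the limit were miR-369-5p, miR-337-3p and miR-674-3p, whose higher segment mean was 10.4, 10.5 and 10.6 CPM, while miR-1843b-3p lay just outside at 8.43 CPM. All 9 libraries, 3 each from caput, corpus and cauda, came from male Swiss mice aged 8 weeks with no label of a treatment or altered gene, so that the groups differed by segment alone as far as the labels go. Each library was made from RNA pooled over several animals, and the vesicles were taken from density gradient fractions and not sorted by cell of origin. The p-values below therefore measure the spread between pools.

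miRNAs are short RNAs of about the length printed below that pair, mainly through the seed at bases 2 to 8, with target mRNAs and lower their translation or stability. Most are cut from a hairpin that yields a 5p and a 3p arm, and neighbouring hairpins are often cut from a shared transcript. Spermatozoa, which transcribe little, meet epididymosomes as they move through the duct and are stored in the cauda, and vesicle uptake is a known route by which sperm acquire small RNAs.

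The sequences that follow are those on which the results turn, grouped by shared seed, with the seed in capitals. They were taken from RefSeq on GRCm38.p6, which supplied a mature sequence for 299 of the 358 names, 292 of them tested. The first pair fell together, the next 2 pairs rose together, and the miR-10 pair held the most reads in the corpus. The last set holds the single members with large changes, and miR-19a-3p, miR-19b-3p and miR-92a-3p of a transcript whose miRNAs diverged.
miR-204-5p: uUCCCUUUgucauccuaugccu
miR-211-5p: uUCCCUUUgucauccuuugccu
miR-196a-5p: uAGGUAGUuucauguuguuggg
miR-196b-5p: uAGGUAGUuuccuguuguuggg
miR-221-3p: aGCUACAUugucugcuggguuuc
miR-222-3p: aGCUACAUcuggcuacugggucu
miR-10a-5p: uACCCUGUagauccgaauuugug
miR-10b-5p: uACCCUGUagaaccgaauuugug
miR-133b-3p: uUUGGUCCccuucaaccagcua
miR-208b-3p: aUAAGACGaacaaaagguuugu
miR-137-3p: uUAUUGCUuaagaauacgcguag
miR-465b-5p: uAUUUAGAauggugcugaucug
miR-148a-3p: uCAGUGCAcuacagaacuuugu
miR-19a-3p: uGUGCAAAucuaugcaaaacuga
miR-19b-3p: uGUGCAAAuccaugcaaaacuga
miR-92a-3p: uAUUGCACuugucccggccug

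Counted from the 5′ end, miR-204-5p and miR-211-5p differ by the single substitution A17U, miR-196a-5p and miR-196b-5p by A12C, miR-10a-5p and miR-10b-5p by U12A, and miR-19a-3p and miR-19b-3p by U11C, so that reads with an error at that base could have been counted under the partner. miR-221-3p and miR-222-3p differ at 12 positions beyond their common seed.

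The 3 corpus libraries held 6190324, 2553385 and 1548581 reads on miRNAs, and those of the cauda 2001086, 2184582 and 5896748, figures obtained from the spacing of low CPM values, which could not be checked against deposited counts. The read numbers, counting intervals, TMM factors and limma-voom results below rest on them. A count of 3 reads corresponded to between 0.485 and 1.94 CPM, and limits of this kind cover counting error only. Between the segments 65 of the 342 miRNAs were called, that is, they had an adjusted p under 0.05 by limma on log2(CPM + 1) with Benjamini-Hochberg adjustment and a fold change of at least 2. These were 19% of the tested miRNAs, with 48 (14%) higher and 17 (4.97%) lower in the cauda. With scaling by the trimmed mean of M values (TMM), which aligns libraries on the bulk of their miRNAs in place of the read total, 90 (26.3%) were called, 56 (16.4%) higher and 34 (9.94%) lower. All 65 were among the 90, and no miRNA was called with library size scaling alone. With library totals taken without the 3 most abundant miRNAs, 92 were called, 69 higher and 23 lower. Over all 342 the median log2 fold change was 0.18 by library size, 0.08 by TMM and 0.33 without the 3 most abundant miRNAs. The change from library size to TMM scaling moved single miRNAs by -0.10 in the median. In vesicles collected from a whole segment, fewer vesicles of a type and less RNA per vesicle cannot be told apart.

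The CPM of the 3 corpus and 3 cauda libraries did not overlap for 158 miRNAs (46.2%), of which 103 were higher and 55 lower in the cauda, and 62 of the 65 called miRNAs were among them. Of the 280 miRNAs that reached 10 CPM in both segments, 30 were called higher and 13 lower. The rest of the calls, 18 higher and 4 lower, were among the 62 members that passed the level in 1 segment only and so had to differ in mean. The number called fell to 40 without corpus replicate 1, 32 without corpus replicate 2, 38 without cauda replicate 1 and 40 without cauda replicate 2, and under TMM scaling to 59 without corpus replicate 2. Leaving out any 1 of the 9 libraries kept the call of 29 miRNAs, 23 higher and 6 lower, and all 29 were also called with TMM scaling and by limma-voom on the recovered reads.

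**Figure D1:**
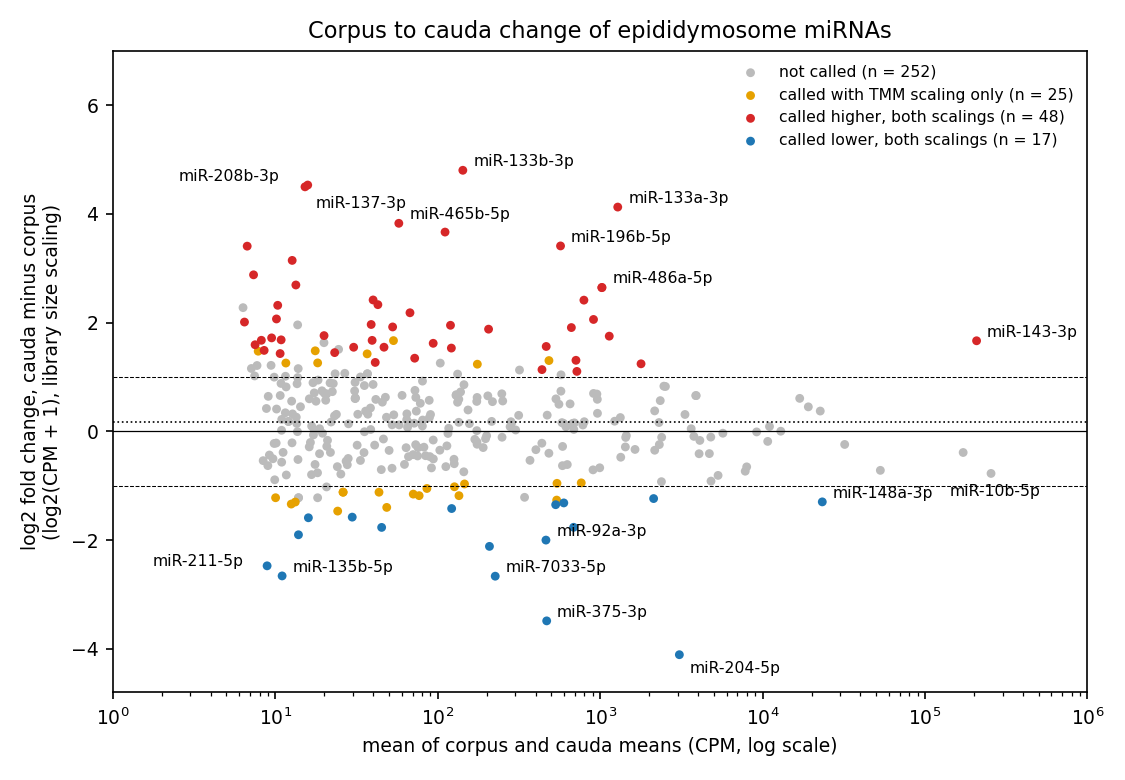
Each point is 1 of the 342 miRNAs, placed by the mean of its corpus and cauda CPM (log scale) and by its log2 fold change on log2(CPM + 1), with dashed lines at a fold of 2 and a dotted line at the median of 0.18. The 48 red points rose and the 17 blue points fell under both scalings, the 25 orange points passed with TMM scaling only, and miR-143-3p is the one red point among the most abundant miRNAs.

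By share of reads the step was carried by very few miRNAs. miR-143-3p, a miRNA known from the smooth muscle of vessels and ducts, took 91269, 87930 and 120674 CPM in the corpus libraries and 352106, 306625 and 287084 CPM in the cauda libraries. Every cauda library lay well above every corpus library, and miR-143-3p became the most abundant miRNA. Its log2 fold change was 1.67 (standard error 0.22, limma with Benjamini-Hochberg adjustment, adjusted p = 7.0e-05), a 3.17-fold rise that was 2.96-fold with TMM scaling.

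Summed over the table, 211 miRNAs gained 267004 CPM and 147 lost 267207 CPM between the segment means. miR-143-3p alone made up 80.6% of the gain. The other 47 miRNAs called higher made up 5.97% of it together, and the next largest gains belonged to miR-21a-5p (2.60%), miR-26a-5p (2.25%) and miR-22-3p (2.21%), none of which was called. The gain of miR-133a-3p, which was called, was 0.865%, and that of miR-199a-3p, which was not, 0.655%.

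On the other side, miR-10b-5p accounted for 49.8% of the lost CPM and miR-10a-5p for 17.3%. These miRNAs lie in the Hox clusters and share the seed printed above. miR-10b-5p was at 323431, 315643 and 325114 CPM in the corpus and 181849, 183794 and 199089 CPM in the cauda, without overlap. Its log2 fold change of -0.77 (standard error 0.16) passed the test (limma with Benjamini-Hochberg adjustment, adjusted p = 0.0036), but at 1.71-fold it missed the required fold, and with TMM scaling its adjusted p was 0.076. For miR-10a-5p the log2 fold change was -0.39 with a standard error of 0.16, and it was not called under either scaling. The pair together took 50.3% to 53.2% of the reads in the corpus but 33.2% to 34.5% in the cauda.

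Further losses of CPM were those of miR-141-3p (9.45%), an epithelial miRNA that was 1.64-fold lower and not called, miR-148a-3p (7.27%), miR-204-5p (2.02%) and miR-30a-5p (1.83%). The 17 miRNAs called lower held 11.4% of the loss in all. The gained CPM thus lay mostly in miR-143-3p and the lost CPM mostly in miRNAs that were not called. Because CPM share a fixed total, gains and losses of CPM are not independent of each other. How much of the losses this accounts for was not tested.

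**Figure D2:**
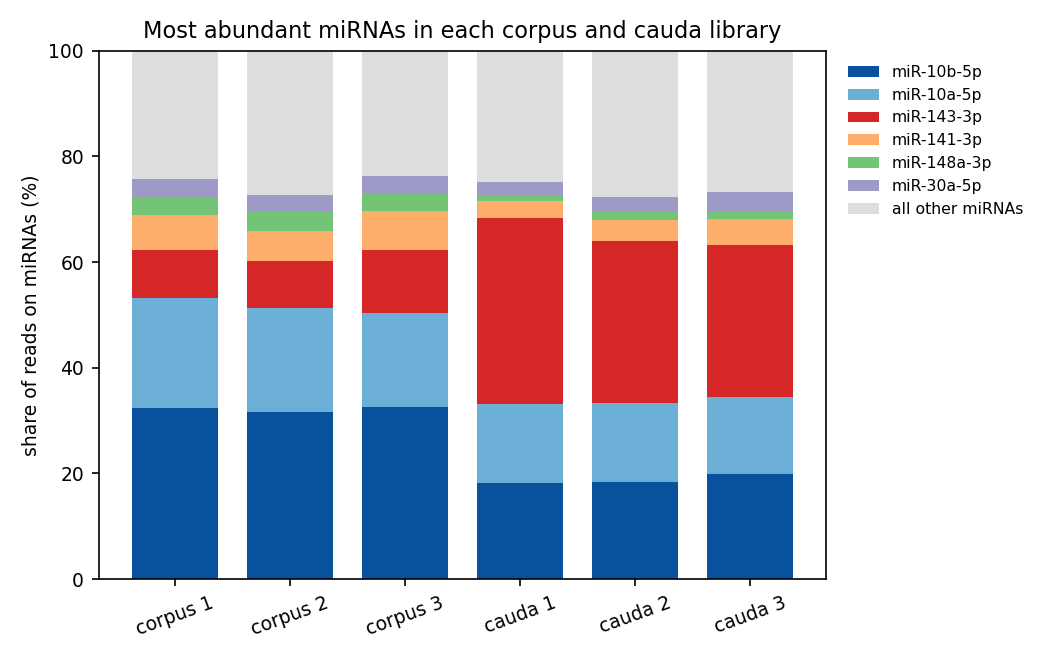
Stacked bars give the percentage of reads on miRNAs held by 6 abundant miRNAs in each of the 3 corpus and 3 cauda libraries, with all other miRNAs in grey. miR-143-3p (red) widens from 8.79% to 12.1% of the reads in corpus libraries to 28.7% to 35.2% in cauda libraries, while miR-10b-5p and miR-10a-5p (blues) narrow.

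The deepest fall was that of miR-204-5p, encoded at chr19:22750610-22750631 (plus strand of GRCm38) in an intron of Trpm3 and abundant in several secretory epithelia. It had 4027, 7369 and 5934 CPM in the corpus and 209, 259 and 631 CPM in the cauda. The highest cauda library, replicate 3, was still far below the lowest corpus library. The log2 fold change was -4.11 (standard error 0.40), a 17.2-fold fall (limma with Benjamini-Hochberg adjustment, adjusted p = 3.8e-06), and -4.21 with TMM scaling.

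miR-211-5p, which shares the seed of miR-204-5p and lies at chr7:64205831-64205852 (plus strand) in an intron of the related gene Trpm1, fell as well. Its corpus libraries had 20.5, 15.7 and 11.0 CPM and its cauda libraries 3.50, 1.37 and 1.36 CPM. The cauda values stood for 3 to 8 reads, so its size is less certain than that of its partner. The log2 fold change was -2.47 (standard error 0.48, limma with Benjamini-Hochberg adjustment, adjusted p = 0.0020).

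miR-375-3p, best known from endocrine and secretory epithelial cells, had 507, 973 and 1089 CPM in the corpus and 43.5, 63.6 and 133 CPM in the cauda. Again no library of one segment reached the range of the other. Its log2 fold change was -3.48 (standard error 0.45, limma with Benjamini-Hochberg adjustment, adjusted p = 4.9e-05). miR-135b-5p was lower in abundance, at 16.3, 28.2 and 14.9 CPM in the corpus against 1.5, 2.29 and 2.88 CPM in the cauda, and fell by 2.66 on the log2 scale (standard error 0.44). These 4 miRNAs, with miR-1839-3p and miR-148a-3p, were the 6 falls that were called whichever library was left out.

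miR-148a-3p had the highest level in the corpus of the 17 miRNAs called lower, with 31853, 34939 and 32237 CPM in the corpus and 10851, 14812 and 15082 CPM in the cauda. Both groups were tight and far apart. Its log2 fold change was -1.30 (standard error 0.28, limma with Benjamini-Hochberg adjustment, adjusted p = 0.0040). Its hairpin lies between genes, with the mature sequence at chr6:51269829-51269850 (minus strand). The miRNAs with the same seed, miR-148b-3p and miR-152-3p, were not called.

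miR-92a-3p, miR-3535, miR-1839-3p, miR-3470b, miR-598-3p and miR-330-5p completed the 10 largest falls without overlap, with log2 fold changes from -2.11 to -1.58. miR-3535 had 128, 286 and 633 CPM in the corpus and 60, 88.3 and 52.2 CPM in the cauda. Its corpus libraries spread widely, and without corpus replicate 3 its log2 fold change was -1.54 and no longer called. The annotation places its sequence at chr1:86352062-86352087 (minus strand) within an exon of Ncl, the nucleolin gene. The calls of miR-3470b, miR-598-3p and miR-330-5p were lost without corpus replicate 2, cauda replicate 1 or cauda replicate 2, and those of miR-598-3p and miR-330-5p also without corpus replicate 1, at log2 fold changes between -1.74 and -1.46. The remaining falls were those of miR-7033-5p, miR-677-3p, miR-187-3p, miR-146b-5p, miR-210-3p and miR-125a-5p, from -2.66 to -1.23. miR-7033-5p and miR-677-3p overlapped between the segments. miR-7033-5p had 122, 719 and 329 CPM in the corpus and 28.5, 29.3 and 128 CPM in the cauda, and lost its call without corpus replicate 2, cauda replicate 1 or cauda replicate 2, at -2.05, -2.30 and -2.32. miR-677-3p lost its call without caput replicate 2, corpus replicate 2 or 3 or cauda replicate 1 or 2, and its log2 fold change without cauda replicate 1 was -1.18. The calls of miR-187-3p, miR-146b-5p, miR-210-3p and miR-125a-5p were each lost without corpus replicate 1, corpus replicate 2 or cauda replicate 1, at log2 fold changes between -1.50 and -1.08. Those of miR-187-3p and miR-210-3p were also lost without corpus replicate 3 or cauda replicate 3, and those of miR-146b-5p, miR-210-3p and miR-125a-5p without cauda replicate 2.

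Among the largest rises were those of miRNAs known from striated muscle. miR-133b-3p had 10.2, 6.66 and 7.75 CPM in the corpus and 237, 441 and 154 CPM in the cauda. The cauda pools differed among themselves, but the lowest was far above any corpus pool. Its log2 fold change of 4.80 (standard error 0.52), a 27.9-fold rise, was the largest of all members (limma with Benjamini-Hochberg adjustment, adjusted p = 6.4e-06).

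miR-133a-3p, which is known to be nearly identical to miR-133b-3p in sequence, so that the split of reads between them is uncertain, had 153, 122 and 107 CPM in the corpus and 2458, 3644 and 1211 CPM in the cauda. The order of the cauda libraries was that of miR-133b-3p, with replicate 2 highest and replicate 3 lowest. It rose by 4.13 on the log2 scale (standard error 0.50, limma with Benjamini-Hochberg adjustment, adjusted p = 2.5e-05). Its other arm, miR-133a-5p, had 4 reads in the 3 corpus libraries together and 118 reads in the cauda, a ratio of 30.1 (95% exact counting interval 11.5 to 112).

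miR-208b-3p, which lies at chr14:54975710-54975731 (minus strand) in an intron of Myh7, the slow myosin heavy chain gene, had 1 read in each corpus library and 59, 80 and 163 reads in the cauda libraries. In CPM this was 0.162, 0.392 and 0.646 against 29.5, 36.6 and 27.6, with even values across the cauda. The ratio of the summed reads over library size was 103, with a 95% exact counting interval of 34.8 to 501. The last of the 5 tested members of the striated muscle list was miR-1a-3p. It rose by 1.72 (standard error 0.53) from 3.55, 2.35 and 5.17 CPM to 10.5, 25.2 and 10.2 CPM. Its call was lost without corpus replicate 1, corpus replicate 2 or cauda replicate 2, where the log2 fold change was 1.72, 1.5 and 1.32.

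All 5 tested striated muscle miRNAs were thus called higher, against 14% of all 342. Of the 5, 4 reached 10 CPM in the cauda only, a class in which 18 of 42 miRNAs were called higher and all 42 had a log2 fold change above 0. Their summed level was 121 to 167 CPM in corpus libraries and 1412 to 4166 CPM in cauda libraries. miR-206-3p, miR-208a-3p and miR-499-5p, also on the planned list, are not among the 358 names of the deposited table. The smooth muscle list, the arms of miR-143 and miR-145a, was called higher for 4 of 4 members, 3 of which reached 10 CPM in both segments, where 30 of 280 miRNAs were called higher. It had a summed level of 88423 to 121412 CPM in the corpus and 291676 to 354786 CPM in the cauda.

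miR-145a-3p had 341, 164 and 229 CPM in the corpus and 1721, 1592 and 716 CPM in the cauda, a rise of 2.41 on the log2 scale (standard error 0.47) that was called whichever library was left out. miR-145a-5p had 449, 319 and 504 CPM in the corpus and 909, 791 and 3851 CPM in the cauda. Cauda replicate 3 stood apart for this arm. The log2 fold change was 1.75 (standard error 0.55), but 1.02 and not called without that library, and the call was also lost without corpus replicate 1 or 2, at 1.81 and 1.56. miR-143-5p, the minor arm of miR-143, rose by 1.76 (standard error 0.58), a call lost on leaving out any 1 of the 6 corpus and cauda libraries, with log2 fold changes from 1.36 when cauda replicate 1 was left out to 2.05 when cauda replicate 2 was. The part of muscle RNA in these results was not tested.

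**Figure D3:**
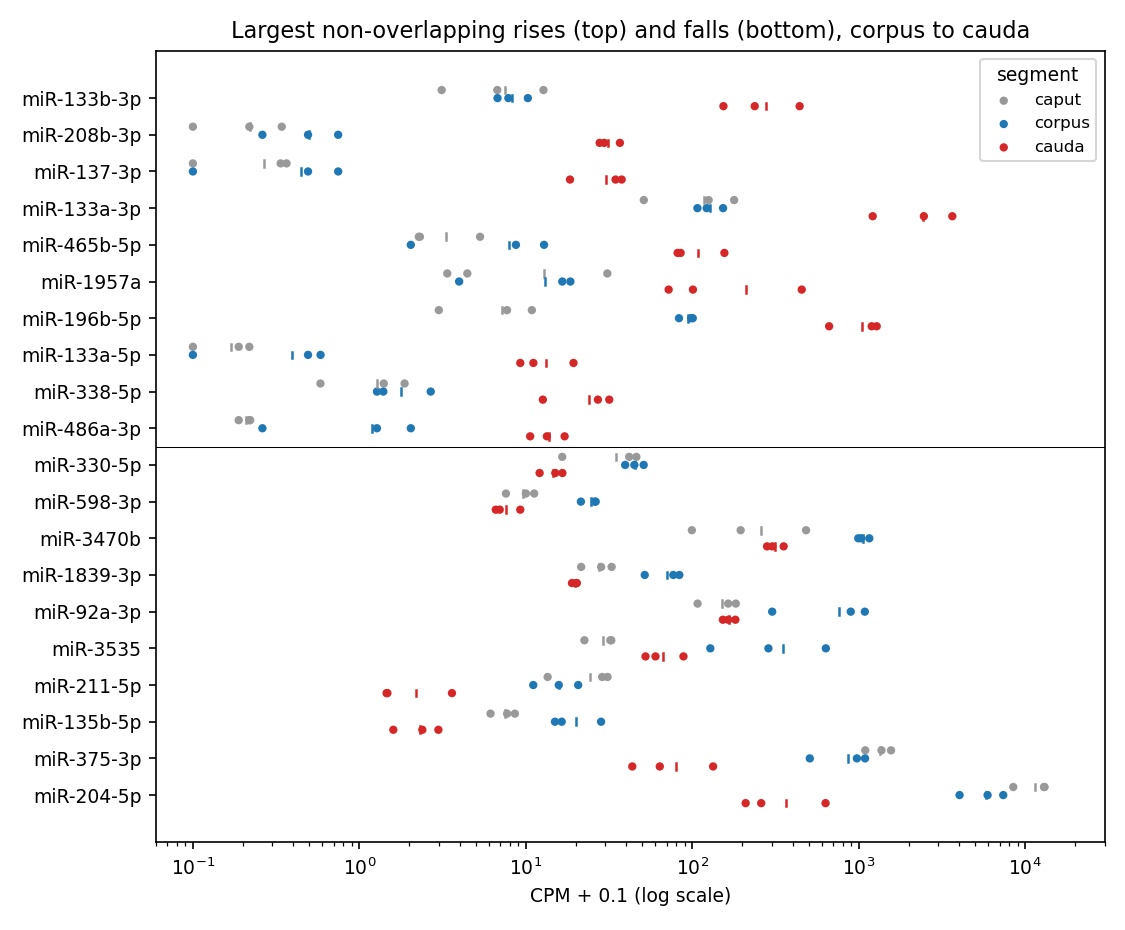
CPM plus 0.1 (log scale) of the 10 largest rises (top) and 10 largest falls (bottom) among called miRNAs whose corpus and cauda values do not overlap. Points are libraries, coloured by segment, and vertical ticks are means of 3 libraries. The cauda libraries of miR-208b-3p, at 27.6 to 36.6 CPM, sit far from the corpus and caput libraries, while miR-92a-3p is high in the corpus alone.

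Other large rises were of miRNAs outside the muscle lists. miR-137-3p, best known from neurons and located at chr3:118433901-118433923 (plus strand) in an exon of a noncoding transcript, had 0.646, 0.392 and 0 CPM in the corpus, or 5 reads, and 34.5, 37.5 and 18.3 CPM in the cauda, or 259 reads. The ratio was 52.9 with a 95% exact counting interval of 22.4 to 164. Of the 5 neuronal miRNAs tested, miR-137-3p and miR-128-3p were called, both higher, where 14% of all 342 were called higher. miR-137-3p reached 10 CPM in the cauda only, a class in which 18 of 42 miRNAs were called higher. miR-124-3p and miR-9-3p, also on the planned list, are not among the names of the deposited table. The rise of miR-128-3p, 1.55 (standard error 0.47), was called in 4 of the 9 fits with 1 library left out and lost on leaving out any 1 of cauda replicates 1 to 3 or corpus replicates 1 and 2. For miR-9-5p, miR-132-3p and miR-138-5p, the log2 fold changes were -0.39, -0.03 and -0.79.

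miR-196b-5p, encoded at chr6:52230129-52230150 (minus strand) within an exon of Hoxa9, had 100, 83.0 and 98.2 CPM in the corpus and 1280, 1194 and 663 CPM in the cauda. Its corpus libraries were nearly equal, and each cauda library was several times higher. The rise was 3.41 on the log2 scale (standard error 0.47, limma with Benjamini-Hochberg adjustment, adjusted p = 7.3e-05). miR-196a-5p, from the Hoxb and Hoxc clusters, went from 97.9, 58.4 and 91.1 CPM to 433, 397 and 155 CPM, a rise of 1.88 (standard error 0.50). Its call was lost without corpus replicate 2, cauda replicate 1 or cauda replicate 2, at log2 fold changes of 1.65, 1.61 and 1.68. The miR-196 and miR-10 families both belong to the Hox clusters, yet the 2 tested miR-196 members were called higher and the 4 tested miR-10 arms were not called.

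miR-1957a had 18.4, 16.4 and 3.87 CPM in the corpus and 72.0, 101 and 454 CPM in the cauda, a rise of 3.67 (standard error 0.79). Cauda replicate 3 was the highest by a wide margin, and over the fits with 1 library left out its log2 fold change ranged from 2.87 to 4.19. miR-338-5p rose by 3.14 (standard error 0.49) from 1.29, 1.17 and 2.58 CPM to 27.0, 31.6 and 12.5 CPM. Further rises that were called whichever library was left out were those of miR-31-3p, miR-378d, miR-350-3p, miR-496a-3p, miR-139-5p and miR-31-5p, with log2 fold changes from 1.92 to 2.69.

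The red blood cell list was split. miR-486a-5p and miR-486b-5p, which share nearly all their reads and cannot be told apart, were at 156, 471 and 281 CPM in the corpus and 2145, 1673 and 1428 CPM in the cauda under the name miR-486a-5p, a rise of 2.65 (standard error 0.50, limma with Benjamini-Hochberg adjustment, adjusted p = 0.0016). The minor arm miR-486a-3p had 7 corpus reads and 125 cauda reads, a ratio of 18.2 (95% exact counting interval 8.59 to 46.3). miR-451a, the most specific marker of red blood cells, had 72.2, 157 and 363 CPM in the corpus and 52.0, 380 and 157 CPM in the cauda. These values overlapped broadly, and its log2 fold change was -0.13 (standard error 0.71). miR-144-3p, from the same transcript, was at 0.66 (standard error 0.65). With the miR-486-5p reads counted once, 2 of 4 tested members of the list were called higher (14% of all tested miRNAs were). Of the 4, miR-486a-3p and miR-144-3p reached 10 CPM in the cauda only, a class in which 18 of 42 miRNAs were called higher. The 4 members summed to 234 to 659 CPM in corpus libraries and 1606 to 2225 CPM in cauda libraries. miR-144-5p and miR-486b-3p, also on the planned list, are not among the names of the deposited table. The part of blood RNA was not tested beyond these values.

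Of the 5 leukocyte miRNAs, miR-155-5p alone was called, where 19% of all 342 were called. This miRNA reached 10 CPM in the cauda only, a class in which 18 of 42 miRNAs were called higher. It had 3.39, 2.35 and 4.52 CPM in the corpus and 13.5, 15.1 and 10.3 CPM in the cauda, a rise of 1.68 (standard error 0.47) that was lost without corpus replicate 1 or 2 or cauda replicate 1 or 2, at 1.49 to 1.69. The list summed to 515 to 1149 CPM in corpus and 392 to 1601 CPM in cauda libraries. The epithelial list was present in both segments, at 74844 to 86410 CPM in the corpus and 46046 to 62226 CPM in the cauda. Of its 7 members, miR-375-3p was called lower, and the other 6, the miR-200 family and miR-205-5p, had log2 fold changes between -0.72 and 0.16. None of the 6 mesenchymal miRNAs, 5 with names that share reads counted once, was called.

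**Figure D4:**
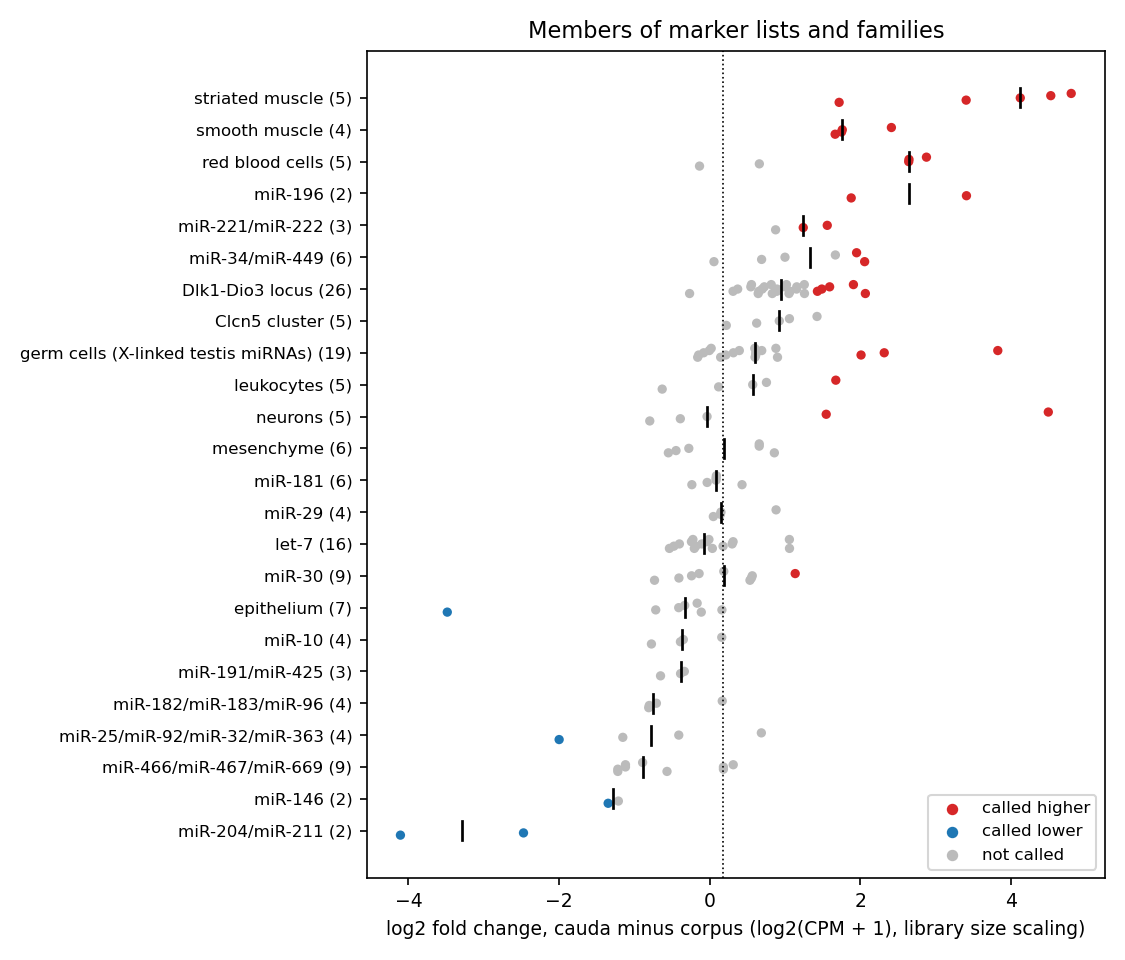
Each point is a tested miRNA of a marker list or family, placed by its log2 fold change from corpus to cauda with library size scaling, with the number of tested members in brackets, black bars at list medians and a dotted line at the median of all 342 miRNAs. The 5 striated and 4 smooth muscle miRNAs are all red, while none of the 16 let-7 miRNAs is coloured.

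None of the 16 let-7 arms, 15 with names that share reads counted once, was called under either scaling. Of all tested miRNAs 19% were called with library size and 26.3% with TMM scaling. The median log2 fold change of the 16 was -0.07 against 0.18 over all tested miRNAs. No call was made under either scaling among the 6 arms of miR-181, the 4 of miR-29 and the 4 of the miR-182, miR-183 and miR-96 cluster. In that cluster the median log2 fold change was -0.75, with 1 of the 4 above 0. There miR-182-5p passed the test at -0.81 (limma with Benjamini-Hochberg adjustment, adjusted p = 0.044) but missed the required fold. The 8 arms of the miR-15 and miR-16 family had none with library size scaling, and with TMM scaling miR-322-3p was called lower, at -1.55. Of the 9 miR-30 arms miR-30a-3p was called, at 1.14 (standard error 0.37), and this call was lost without caput replicate 1 or any 1 of the corpus and cauda libraries, at 1.00 to 1.24. Within the 6 arms of miR-34 and miR-449, known from germ cells and multiciliated cells, miR-34c-5p and miR-34b-3p were called higher. With TMM scaling 3 of the 6 were called higher. Calls higher made up 14% of all tested miRNAs with library size and 16.4% with TMM scaling. The median log2 fold change of the 6 was 1.34, and miR-34b and miR-34c share a locus on chromosome 9. miR-34c-5p had 328, 381 and 342 CPM in the corpus and 1355, 1710 and 1341 CPM in the cauda, with both groups tight and well apart. Its rise was 2.06 on the log2 scale (standard error 0.49, limma with Benjamini-Hochberg adjustment, adjusted p = 0.0079). miR-34a-5p, transcribed from another locus, was at 116 CPM in the corpus mean and 118 CPM in the cauda mean.

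Among the 292 tested miRNAs with a RefSeq sequence, 40 seeds were shared by at least 2 tested miRNAs, and 3 of them had at least 2 called members: UCCCUUU (miR-204-5p and miR-211-5p, both lower), AGGUAGU (miR-196a-5p and miR-196b-5p, both higher) and GCUACAU (miR-221-3p and miR-222-3p, both higher). No seed had members called in opposite directions under either scaling. Of the 16 seeds with 3 or more tested miRNAs, 12 had no called member and 4 had 1. These counts are incomplete, since a sequence was at hand for 33 of the 48 miRNAs called higher and 12 of the 17 called lower. Called miRNAs without one, such as miR-34c-5p and miR-133a-3p, are outside them. Names that share their reads, such as miR-465a-3p, miR-465b-3p and miR-465c-3p, were counted separately. miR-221 and miR-222 lie within a short stretch of chromosome X. miR-221-3p had 1077, 866 and 1213 CPM in the corpus and 2545, 3089 and 1914 CPM in the cauda, and miR-222-3p had 265, 233 and 192 CPM against 972, 585 and 543 CPM. Neither overlapped between segments. Their rises were 1.24 (standard error 0.38) and 1.56 (standard error 0.41). The call of miR-221-3p was lost on leaving out any 1 of the 3 corpus libraries or of cauda replicates 1 and 2, where its log2 fold change lay between 1.08 and 1.35, and that of miR-222-3p without cauda replicate 1, corpus replicate 2 or corpus replicate 3, at 1.3, 1.58 and 1.44.

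The transcript that carries miR-17 to miR-92a is one of the hairpin clusters, taken as hairpins within 10 kb on 1 strand, and had calls in both directions. Its 6 hairpins span chr14:115043671-115044506 (plus strand) in the noncoding gene Mir17hg, which is known as an oncogenic cluster that promotes proliferation. miR-19a-3p had 23.7, 17.2 and 25.2 CPM in the corpus and 70.5, 187 and 81.2 CPM in the cauda. It rose by 2.18 (standard error 0.54, limma with Benjamini-Hochberg adjustment, adjusted p = 0.010). miR-92a-3p, at the far end of the transcript, had 895, 1086 and 302 CPM in the corpus and 152, 181 and 164 CPM in the cauda.

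The corpus libraries of miR-92a-3p were uneven and the cauda libraries nearly equal, and the groups did not overlap. It fell by 2.00 (standard error 0.47, limma with Benjamini-Hochberg adjustment, adjusted p = 0.0072). Without corpus replicate 2 its log2 fold change was -1.64 and not called, and without cauda replicate 2 that of miR-19a-3p was 1.75 and not called. Both kept their calls in the other 8 fits. Under TMM scaling miR-19b-3p was also called higher and miR-17-5p lower, while miR-18a-5p and miR-20a-5p were not called under either scaling. miR-19b-3p and miR-92a-3p have a further hairpin each on chromosome X, and reads from the copies cannot be told apart. With TMM scaling these 2 miRNAs were called in opposite directions, so the chromosome X cluster that holds the further hairpins had calls in both directions as well.

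**Figure D5:**
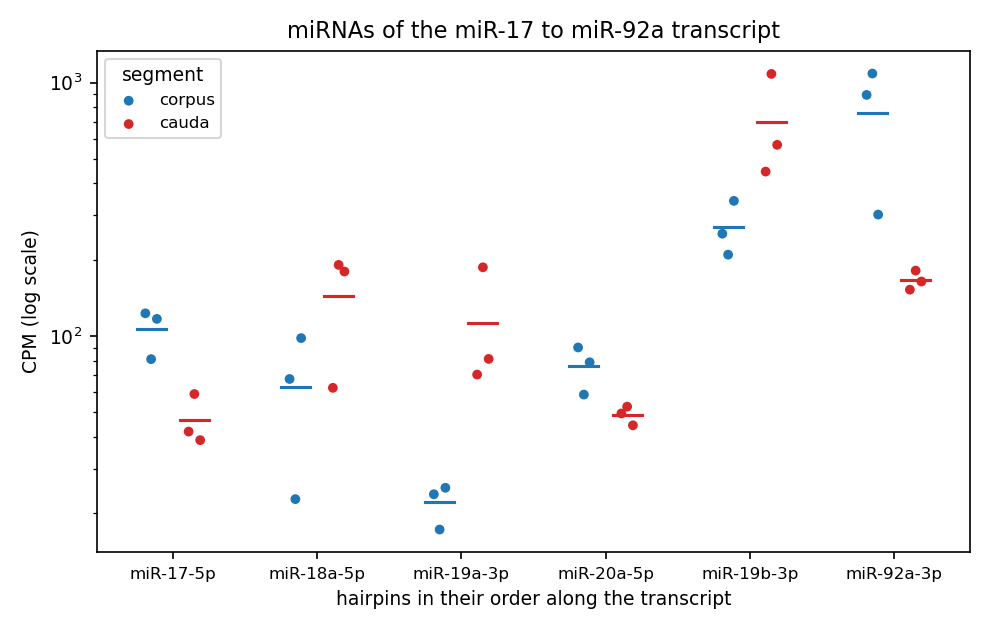
CPM (log scale) of the 6 miRNAs from the miR-17 to miR-92a transcript in the order of their hairpins, with points for the 3 corpus and 3 cauda libraries and bars at the means. miR-19a-3p and miR-19b-3p lie higher in all cauda libraries, and miR-17-5p, miR-20a-5p and miR-92a-3p lie lower in all of them.

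Of the other clusters, miR-193b-3p and miR-365-3p, which share a locus on chromosome 16, were both called higher, at 1.45 (standard error 0.48) and 1.55 (standard error 0.47). These calls were kept in 3 and 5 of the 9 fits with 1 library left out and were lost without corpus replicate 1 or 2 or cauda replicate 1 or 2, at 1.21 to 1.66, and that of miR-193b-3p also without caput replicate 1 or cauda replicate 3. In the imprinted Dlk1-Dio3 locus of chromosome 12, 5 of 26 tested miRNAs were called, all higher, against 14% of all tested miRNAs, or 7 with TMM scaling against 16.4%. Without corpus replicate 2, miR-299a-5p, miR-329-3p, miR-376b-3p and miR-434-3p lost their calls, at log2 fold changes of 1.27, 1.36, 1.46 and 1.66, and of the 5 miR-496a-3p alone kept its call whichever library was left out. Of the 26, 25 had a log2 fold change above 0, against 204 of all 342 miRNAs. The median was 0.95. Since 11 of the 26 reached 10 CPM in the cauda only, they had to lie higher there, and among the 15 that reached it in both segments 14 were above 0, with a median of 0.73 and 1 call. That call was miR-434-3p, at 252, 190 and 407 CPM in the corpus and 726, 1091 and 1320 CPM in the cauda. The cauda libraries were all above the corpus libraries, with a rise of 1.91 (standard error 0.49).

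The X-linked testis cluster, 19 tested miRNAs known from spermatogenic cells, had 3 called higher, namely miR-465b-5p, miR-471-5p and miR-470-3p, a share near the 14% of all tested miRNAs. The call of miR-470-3p was lost without corpus replicate 2 or cauda replicate 1, at 1.94 and 1.34 against 2.01 with all libraries. All 3 reached 10 CPM in the cauda only, and of the 15 members that reached it in both segments none was called. miR-465b-5p had 12.8, 8.62 and 1.94 CPM in the corpus, the last value from 3 reads, and 85.0, 81.5 and 156 CPM in the cauda. Even the lowest cauda library was several times the highest corpus library, and the rise was 3.83 (standard error 0.56, limma with Benjamini-Hochberg adjustment, adjusted p = 0.00014). With names that share reads counted once, the list had 17 members and summed to 950 to 1063 CPM in the corpus and 1104 to 1786 CPM in the cauda. The part of germ cell RNA in these values was not tested.

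A ratio of arms within a library does not depend on scaling. Of 69 precursors with both arms at sufficient level, 4 (5.8%) differed between the segments in the ratio of 5p over 3p reads (adjusted p under 0.05, limma with Benjamini-Hochberg adjustment). For miR-465b the log2 ratio was -0.61, -1.97 and -2.93 in corpus replicates 1 to 3 but 1.40, 1.58 and 1.51 in those of the cauda, so that the 3p arm led in every corpus library and the 5p arm in every cauda library. The change was 3.33 (standard error 0.53, limma with Benjamini-Hochberg adjustment, adjusted p = 0.0022), and it was called whichever library was left out. The 3p arm of miR-465b shares its reads with miR-465a-3p and miR-465c-3p, so this ratio compares a single 5p arm with a pooled 3p arm.

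The miR-434 ratio changed by -2.18 (standard error 0.48), the miR-30a ratio by -1.38 (standard error 0.34) and the miR-1839 ratio by 1.57 (standard error 0.34). For miR-30a the 5p arm was in large excess in both segments. miR-434-5p itself had 54.5, 56.3 and 241 CPM in the cauda, and without cauda replicate 3 the miR-434 change was -2.70. Without corpus replicate 1 or 2 or cauda replicate 1 or 2, the ratio changes of miR-434, miR-30a and miR-1839 were not called, with values from -2.28 to -1.79, from -1.45 to -1.20 and from 1.45 to 1.56. The miR-30a ratio was also not called without caput replicate 3, and 13 ratios were called without cauda replicate 3.

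Where the second step was set against the first (cauda minus corpus, less corpus minus caput), 22 of 358 miRNAs (6.15%) differed at an adjusted p under 0.05 by limma with Benjamini-Hochberg adjustment, 7 with a higher and 15 with a lower second step. With TMM scaling there were 44 (12.3%), 27 higher and 17 lower, and 21 were found under both. With library size scaling the number was 14 without corpus replicate 1, 8 without corpus replicate 2 and 35 without caput replicate 2 or caput replicate 3. The corpus libraries enter both steps with opposite sign. Of the 22, 13 were higher in the corpus mean than in both neighbours, 2 were lower than in both, 5 were above 0 in both steps and 2 below 0 in both.

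The 5 with an upward change concentrated in the second step were miR-133a-3p, miR-133a-5p, miR-133b-3p, miR-208b-3p and miR-137-3p. For miR-133b-3p the mean level was 7.44 CPM in caput, 8.19 CPM in corpus and 277 CPM in cauda libraries, and the steps differed by 4.52 on the log2 scale (limma with Benjamini-Hochberg adjustment, adjusted p = 0.0049). The downward ones were miR-204-5p, whose means were 11488, 5777 and 366 CPM, and miR-375-3p, at 1341, 857 and 80.1 CPM. miR-92a-3p was highest in the corpus, with means of 151, 761 and 166 CPM in caput, corpus and cauda, and the same shape was seen in miR-3535 (29.0, 349 and 66.8 CPM), miR-3470b (259, 1060 and 312 CPM) and miR-141-3p (17882, 65694 and 40435 CPM). miR-31-5p had the reverse shape, at 62.1, 20.7 and 84.7 CPM.

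With library size scaling and the 6 corpus and cauda libraries alone, 85 miRNAs were called, 59 higher and 26 lower. In the fits of all 9 libraries, 25 calls beyond the 65, 8 higher and 17 lower, passed with TMM scaling only. The most abundant of those lower were miR-690, miR-93-5p, miR-3470a and miR-672-5p, with log2 fold changes of -0.95, -0.95, -1.26 and -0.97 under library size scaling and -1.05, -1.05, -1.36 and -1.06 under TMM scaling. miR-93-5p, of the family of miR-17, which is linked to proliferation, had 689, 848 and 601 CPM in the corpus and 299, 333 and 482 CPM in the cauda, without overlap. The most abundant of those higher were miR-19b-3p, miR-378c, miR-34b-5p and miR-362-3p. miR-19b-3p had 253, 210 and 342 CPM in the corpus and 446, 1083 and 568 CPM in the cauda, and its adjusted p by limma with Benjamini-Hochberg adjustment was 0.078 with library size and 0.025 with TMM scaling.

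A check of length, GC content and sequence motifs over the called miRNAs was void, because a sequence was at hand for 33 of the 48 called higher and 12 of the 17 called lower.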

How the data were processed

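Small RNA of epididymosomes was sequenced in 3 libraries for each of caput, corpus and cauda, grouped by the sample titles. The authors screened reads for contaminants, counted known mature miRNAs with miRDeep2 and scaled them to the library size, and the deposited values are CPM of 358 miRNAs. The submitters' processing notes also name CASAVA 1.8.2, Bowtie 1.1.1 and limma, and the miRBase release is not given in the sources used here. Reads per library were recovered from the CPM steps, where 100% of values were whole to within 0.1 of a read. Few values are low enough to verify this recovery independently, so the CPM remained the values tested.

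The comparison used limma 3.58 in R 4.3 (lmFit, eBayes with trend) on log2(CPM + 1), which understates the change of low miRNAs. All 9 libraries entered with segment as the only factor, and p-values were adjusted (Benjamini-Hochberg) over 342 miRNAs. TMM factors were computed from the recovered reads of all libraries. The test of the steps covered all 358 miRNAs, and arm ratios had a pseudocount of 0.5 CPM. Replicate numbers were not used to pair the samples in the main fit. Members and lists were chosen with earlier results of these data known. Singly named miRNAs were the 10 largest non-overlapping rises and falls, the 6 largest gains and losses of CPM, the 4 most abundant calls made under 1 scaling in each direction, list members and called arm ratios. Others were named after their values were seen. The test was tested on simulated data. Sequences and coordinates are from RefSeq and GENCODE on GRCm38. Python 3.11, pandas 2.3 and matplotlib 3.10 were used.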

Additional observations from a re-analysis of the deposited data

How the results depend on the processing

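Directions held for the 38 miRNAs followed singly: of 713 values over the alternatives, none was reversed, 655 kept their side of the threshold, 44 newly passed it and 14 no longer did. The number called (65, with 48 higher and 17 lower) was 43 (31 higher) at a mean of at least 50 CPM and 12 (9 and 3) when tested against a fold of 2. Lower calls numbered 34 with TMM scaling, 37 with median-of-ratios scaling and 26 with the 6 corpus and cauda libraries alone. The median log2 fold change moved to -0.022 with median-of-ratios scaling. Scaling without the 3 most abundant miRNAs went the other way, with 92 calls, 69 higher and 23 lower, and a median of 0.33. With 1 library left out, 32 to 82 miRNAs were called, 25 to 58 higher and 7 to 24 lower, and the number was 40, 32, 38 and 40 without corpus replicates 1 and 2 and cauda replicates 1 and 2. Under TMM scaling, with alternatives added after the values were seen, it was 59 to 94 (21 to 37 lower), lowest without corpus replicate 2. Changed arm ratios ranged from 1 to 13, with 1 without corpus replicate 1 or 2 or cauda replicate 1 or 2 and 13 without cauda replicate 3. Differences between steps were 44 with TMM scaling and ranged from 8 (without corpus replicate 2) to 35 (without caput replicate 2 or 3), with 14 without corpus replicate 1. limma-voom called 46. With the replicate block 73 were called (52 higher, 21 lower), and 91 with TMM scaling and the block. The deviations of same-numbered corpus and cauda libraries correlated at 0.24, -0.19 and 0.20, and those of differently numbered ones at -0.31 to 0.16. With 3 libraries per segment these values cannot decide whether the numbers mark pairs. The 2 planned edgeR alternatives were not run, since the values are CPM and the reads recovered from them could not be verified independently, a limit that limma-voom and the scaling factors share. At 10 CPM the shallowest library held 15.5 reads, which limits the precision of low miRNAs.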
